A study of Mus musculus with 14 samples.

Results

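Single mouse embryos made by somatic cell nuclear transfer (SCNT) were compared at the two-cell stage: 3 embryos titled TSA(0-8h)+VItaminC(8-15h) and 3 untreated embryos titled Control, of 14 sequenced in all. Each profile lists 25650 RefSeq transcript entries in RPKM, that is reads scaled by the length of the entry and by the reads counted in the library. The 5304 entries at 1 RPKM or more in at least 3 of these 6 embryos, whatever their group, were tested, and they carry 4923 gene symbols. In SCNT the nucleus of a body cell is put into an egg whose own chromosomes were taken out, and cumulus cells, which surround the egg, were the usual donors in the study. Every embryo was of the B6D2F1 strain, was activated for 6 h in medium with strontium chloride, EGTA and cytochalasin B, and was grown in mKSOM with deionized bovine serum albumin. The treated embryos also had 50 nM trichostatin A (TSA) from 0 to 8 h after activation began, then 10 µg/ml vitamin C (VC) from 8 to 15 h. The labels give collection as 28 h after nuclear transfer in both groups, so the treated embryos were collected after both agents had been taken away. The other 8 embryos had TSA alone, VC alone or both at other times, and their values are given only as levels.

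TSA inhibits histone deacetylases, which keeps histones acetylated and chromatin open. VC keeps iron-dependent dioxygenases active, among them the Tet enzymes and the histone demethylases of the Kdm family. In the mouse the main wave of embryonic transcription begins at the two-cell stage, while RNA stored in the oocyte is cleared, so a two-cell profile is a mixture of stored and newly made transcripts. Some oocyte regulators hold stored RNA silent. Early transcripts include two-cell genes such as the Zscan4, Tdpoz and Trim43 families, and genes for making ribosomes and processing RNA.

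Between 4343837 and 13589389 reads were counted per embryo in these 6 libraries. Control embryos had 5197, 3819 and 5439 transcripts at 1 RPKM or more (mean 4818 ± 874, SD, n = 3) and treated embryos 5489, 5539 and 5720 (5583 ± 122, SD, n = 3). Every treated embryo was above every control embryo, with a difference of 764 transcripts (two-sided exact permutation test, p = 0.1, the smallest p that 3 against 3 embryos allow). Control embryo 2 stood apart at 3819, although its library of 6864593 reads was not the shallowest, and without it the difference was 265 transcripts. At 0.1 RPKM or more the groups overlapped (6897 to 7346 in control and 7289 to 7609 in treated embryos, two-sided exact permutation test, p = 0.2). Less RNA per embryo, from fewer or emptier cells, and fewer genes transcribed cannot be told apart in these libraries. Oocyte markers were present in every embryo (summed level of 10 markers, 338 to 1285 RPKM in control and 451 to 607 RPKM in treated embryos). The 8 two-cell markers summed to 55.7, 7.05 and 314 RPKM in control embryos 1 to 3 and to 299, 505 and 341 RPKM in treated embryos 1 to 3. The sum was lowest in control embryo 2, while in control embryo 1 Tcstv1 alone gave 54.8 RPKM. Of the 8 markers, 1, 4 and 6 were at 1 RPKM or more in control embryos 1 to 3. In treated embryos 1 to 3 the counts were 7, 8 and 4, so by count control embryo 1 was lowest. Of 14 markers of cumulus and granulosa cells, 13 were under 1 RPKM in all 6 embryos, and Serpine2 reached 11.4 RPKM in control and 36.2 RPKM in treated embryos.

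Over the 5304 transcripts the median difference, treated minus control, was 0.53 on the log2(RPKM+1) scale, and 60.8% of transcripts had a positive difference. The median SD within groups was 2.10 on that scale, so single transcripts varied several-fold between embryos of the same group. By limma with Benjamini-Hochberg adjustment, 1 transcript was upregulated (0.0189% of those tested) and 1 was downregulated (0.0189%) at an adjusted p under 0.05. At an unadjusted p under 0.01 there were 74 higher (1.4%) and 20 lower (0.377%) transcripts. All 3 treated embryos were above all 3 control embryos for 555 transcripts (10.5%) and below them for 195 (3.68%), and these shares are the background against which gene groups are read here. They include 160 at 1 RPKM or more in all 3 treated and no control embryo, and 35 of the reverse kind. Such transcripts pass the filter only through 1 group, and only if the groups do not overlap. Among the 160 were the Arhgap1 entry, Sprtn, Ubtfl1, Rpl9, U2af1, Kdm3b, Gclc, Ube3a and Usp29, and among the 35 was Hbegf. Without control embryo 2, the counts of transcripts whose groups did not overlap were 749 higher (14.1%) and 539 lower (10.2%), and the median difference was 0.23. The surplus of higher over lower transcripts also turned with the scaling: at an unadjusted p under 0.01 it was 70 against 41 after quantile normalization and 27 against 53 after median-ratio scaling, where the median difference of all transcripts was -0.06. The differences below are therefore read against 0.53 and not against 0.

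The transcript past the threshold among the higher ones was an entry of Arhgap1 (NM_001145902), which encodes a GTPase-activating protein. It was at 0, 0 and 0.545 RPKM in control embryos 1 to 3 and at 713, 879.7 and 573 RPKM in treated embryos 1 to 3. The groups were far apart, at 0, 0 and 1 reads against 418, 923 and 949, and the difference was 9.27 (SE 1.50, adjusted p = 0.00331 by limma with Benjamini-Hochberg adjustment). The gene lies on chromosome 2 of mm9 from 91490017 to 91512483 on the plus strand. This entry is counted over 135 bases only. The other entry of the gene (NM_146124), counted over 3086 bases, was at 28.0, 0.614 and 44.4 RPKM in control and 161, 11.3 and 25.3 RPKM in treated embryos, so its groups overlapped. With the reads of both entries put over their summed length, the difference was 2.62 and the adjusted p was 0.662 by limma with Benjamini-Hochberg adjustment. Without treated embryo 1, 2 or 3 the difference of the short entry was 9.26, 9.11 and 9.42, near its value in all 6, but the call was lost (adjusted p = 0.303, 0.397 and 0.221). Entries counted over fewer than 300 bases made up 2.04% of those tested, and 4 of the 12 higher transcripts with the smallest p were such entries.

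**Figure D1:**
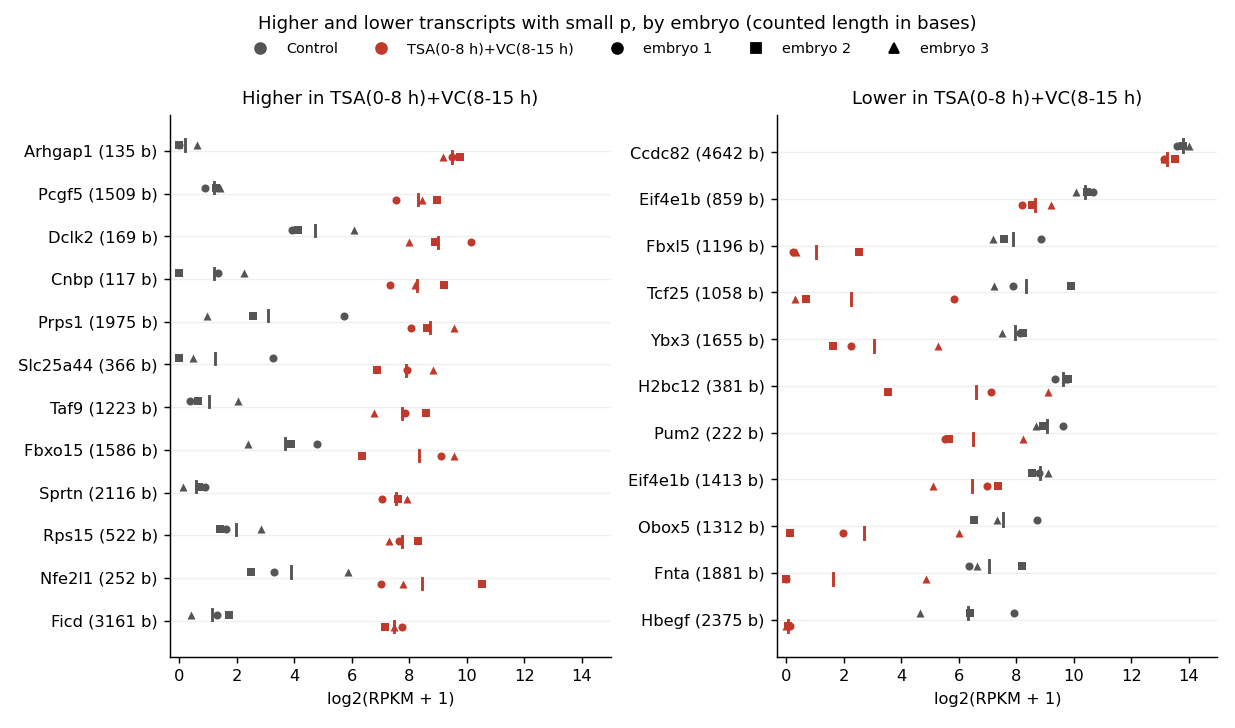
Levels on the log2(RPKM+1) scale of the 12 higher and 11 lower transcripts with small p whose groups did not overlap, with control embryos in grey, treated embryos in red, 1 marker shape per embryo number, a vertical bar at each group mean and the counted length in bases in brackets. Most of the higher transcripts were near 0 in at least 1 control embryo and most of the lower ones near 0 in at least 1 treated embryo, while Ccdc82, Eif4e1b and Pum2 were abundant in all 6.

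None of the other 11 higher transcripts with the smallest p passed the threshold. Pcgf5 encodes a RING finger protein of a Polycomb complex. It was at 0.855, 1.45 and 1.71 RPKM in control and at 183, 494 and 346 RPKM in treated embryos, with no overlap (difference 7.10, SE 1.53, adjusted p = 0.0757 by limma with Benjamini-Hochberg adjustment). It has 1 entry, counted over 1509 bases, and in the other 8 embryos it was between 0.733 and 252 RPKM. Prps1 makes phosphoribosyl pyrophosphate, the precursor of purine and pyrimidine nucleotides. It was at 52.1, 4.94 and 0.969 RPKM in control and at 264, 388 and 746 RPKM in treated embryos (difference 5.64, SE 1.25, adjusted p = 0.0757). The other 8 embryos, of which all had TSA, VC or both, were between 42.5 and 509 RPKM, so the 3 control embryos included the lowest values of the series. By limma with Benjamini-Hochberg adjustment, both genes were past the threshold without control embryo 2 (adjusted p = 0.00941 for Pcgf5 and 0.0293 for Prps1) or control embryo 1 (0.0498 and 0.0224). Without control embryo 3 the adjusted p was 0.0386 for Pcgf5 and 0.113 for Prps1, and without 1 treated embryo it was 0.668 to 0.801 for Pcgf5 and 0.668 to 0.833 for Prps1. The differences stayed between 6.78 and 7.49 for Pcgf5 and between 4.58 and 6.96 for Prps1 with 1 embryo left out.

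Taf9 encodes a subunit shared by TFIID and SAGA, complexes that start transcription by RNA polymerase II. It was at 0.301, 0.596 and 3.13 RPKM in control and at 229.5, 387 and 108 RPKM in treated embryos. Sprtn encodes a protease that removes proteins crosslinked to DNA. It was at 0.871, 0.620 and 0.104 RPKM in control and at 133, 193 and 244 RPKM in treated embryos. Ficd, which encodes an enzyme that modifies the chaperone BiP, was at 2.30 RPKM or less in control embryos and at 142 RPKM or more in treated embryos. Fbxo15, an F-box gene marking undifferentiated embryonic cells, was at 26.5, 13.7 and 4.22 RPKM in control and 545, 81.2 and 747 RPKM in treated embryos, and at 182 to 778 RPKM in the other 8. The remaining members of these 12 were an entry of 366 bases of Slc25a44, a mitochondrial carrier, Rps15, and short entries of Dclk2, Cnbp and Nfe2l1 counted over 169, 117 and 252 bases. The longest entry of Cnbp, at 234, 7.09 and 64.6 RPKM in control and 108, 245 and 216 RPKM in treated embryos, did not part the groups. Nor did the longest entry of Slc25a44, at 133, 1.51 and 12.7 RPKM against 108, 56.7 and 216 RPKM. The longest entries of Dclk2 and Nfe2l1 overlapped between the groups as well.

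Among the lower transcripts, those with the smallest p included regulators of stored oocyte RNA. Eif4e1b encodes the cap-binding protein eIF4E1b of oocytes, and both of its entries were lower in all 3 treated embryos. The first entry (NM_001039683) was at 1614, 1422 and 1074 RPKM in control and at 296, 372 and 590.0 RPKM in treated embryos (difference -1.75, SE 0.42, adjusted p = 0.138 by limma with Benjamini-Hochberg adjustment). The second (NM_001033269) was at 448, 378 and 548 RPKM against 124, 163 and 33.5 RPKM (difference -2.34). These are abundant transcripts, with 1104 to 12535 reads per embryo for the first entry. Ybx3, a cold-shock protein that binds RNA, was at 280.2, 302 and 183 RPKM in control and at 3.76, 2.10 and 37.8 RPKM in treated embryos. Pum2, a protein that represses target RNA, was lower in every treated embryo by 2 of its 3 tested entries. The entry of 222 bases was at 783, 486 and 409 RPKM against 45.6, 49.8 and 302 RPKM, and the entry of 6228 bases at 95.6, 94.5 and 136 RPKM against 52.4, 16.7 and 85.0 RPKM. The remaining entry, of 166 bases, was low, at 1.11, 0 and 0 RPKM against 2.77, 13.2 and 0 RPKM, and its groups overlapped.

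Fbxl5, the iron-sensing F-box protein that targets iron regulatory proteins for destruction, was also lower by both entries. The shorter one was at 462, 191 and 145 RPKM in control and 0.193, 4.84 and 0.272 RPKM in treated embryos, and the longer one at 194, 80.1 and 188 RPKM against 42.3, 5.09 and 13.6 RPKM. Neither passed the threshold (adjusted p = 0.139 and 0.534 by limma with Benjamini-Hochberg adjustment). H2bc12, a histone H2B gene, was at 655, 885 and 826 RPKM against 140.2, 10.8 and 551 RPKM. Obox5, a homeobox gene of oocytes and early embryos, was at 419, 91.7 and 161 RPKM against 2.98, 0.0981 and 63.8 RPKM. Hbegf, a growth factor of the EGF family, was at 242, 83.4 and 24.4 RPKM in control embryos, under 0.1 RPKM in treated embryos and at 1.29 RPKM or less in the other 8. Ccdc82 was the most abundant of these transcripts and differed least: 12255, 14146 and 16648 RPKM in control and 8989, 11806 and 8949 RPKM in treated embryos (difference -0.53, SE 0.13, adjusted p = 0.132 by limma with Benjamini-Hochberg adjustment). The size of this difference depended on the scaling, at 0 for Ccdc82 after quantile normalization and -1.37 after median-ratio scaling (adjusted p = 1 and 0.206).

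**Figure D2:**
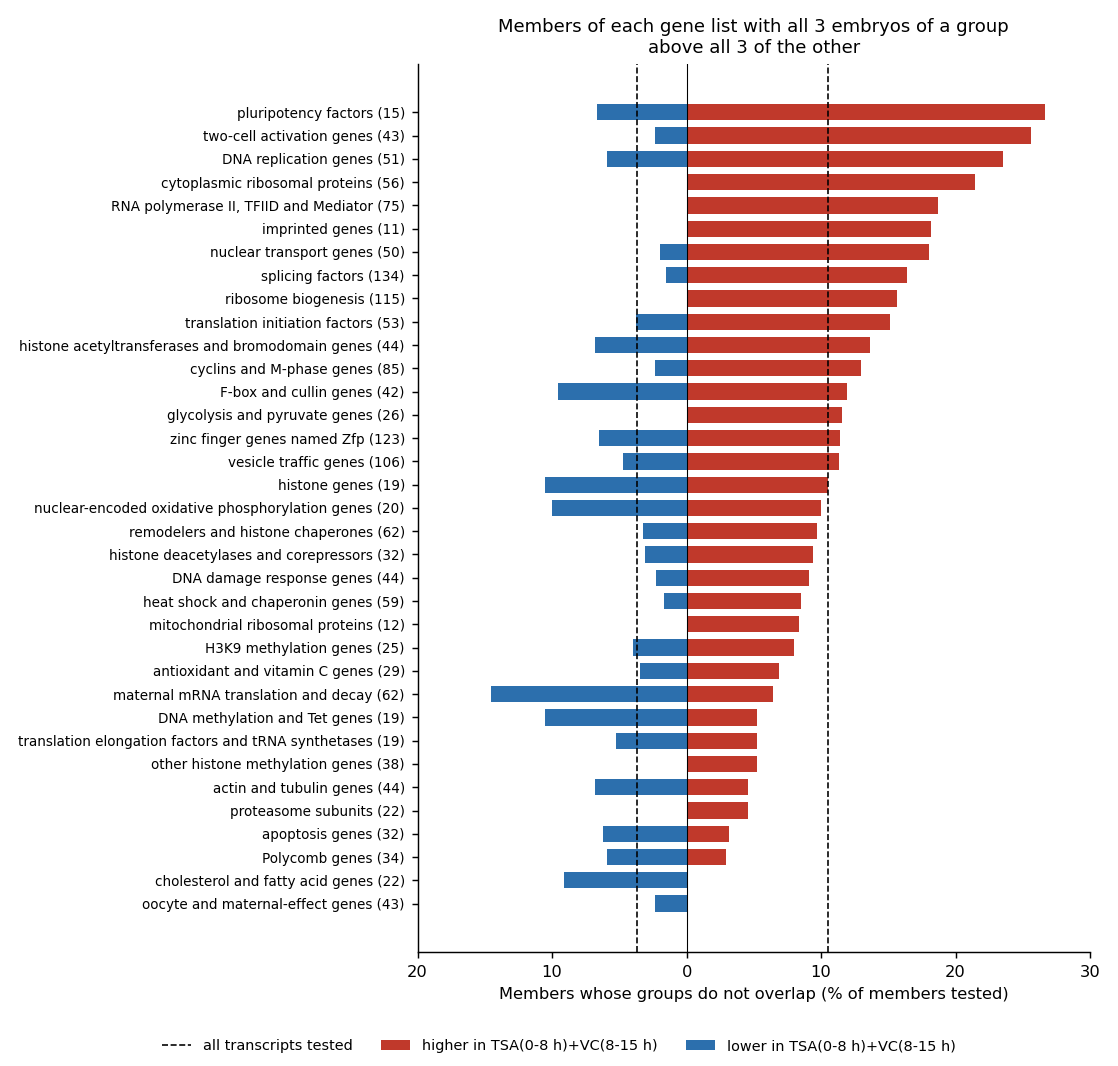
Share of the tested members of each gene list (x axis, percent, number tested in brackets) for which all 3 treated embryos were above all 3 control embryos (red, to the right) or below them (blue, to the left), with dashed lines at the shares over all 5304 transcripts, 10.5% and 3.68%. Two-cell genes, DNA replication genes, ribosomal proteins and the basal transcription machinery lay right of the line, oocyte genes had 0 higher members, and the regulators of maternal RNA had the largest share of lower members, 14.5%.

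Among lists with more than 40 tested transcripts, members that parted the groups upward were most frequent in those for two-cell genes, DNA replication, ribosomal proteins and the RNA polymerase II machinery. Of 43 tested transcripts of two-cell activation genes, 11 (25.6%) were higher in every treated embryo and 1 was lower, and the median difference was 2.14 against 0.53 over all transcripts. The lower one was Obox5, and the Trim43 genes were among the higher ones. Trim43b was at 5.30, 0.837 and 80.7 RPKM in control and at 355, 122 and 253 RPKM in treated embryos, and Trim43a, its close paralog, at 3.42, 1.35 and 70.2 RPKM against 118, 199 and 359.8 RPKM. Reads of such near-identical genes can be split between copies, so each value is uncertain. Ubtfl1, a two-cell relative of the nucleolar factor UBTF, was at 0, 0.331 and 0.112 RPKM in control and at 47.1, 26.3 and 196 RPKM in treated embryos. The Zscan4 genes did not part the groups: Zscan4d was at 0, 0 and 29.4 RPKM in control and at 6.59, 1.36 and 0.0409 RPKM in treated embryos. Control embryo 2 was the lowest for this list, with 34.9% of its tested members at 1 RPKM or more against 67.4% and 74.4% in the other control embryos and 79.1% to 90.7% in treated embryos. Without it, 11 members (25.6%) were still higher and 2 (4.65%) lower, against 14.1% and 10.2% over all transcripts. The median difference was then 1.00 against 0.23 over all transcripts.

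Genes for ribosome biogenesis, which make, cut and assemble ribosomal RNA in the nucleolus, had 18 of 115 tested transcripts (15.7%) higher in every treated embryo and 0 lower, and a median difference of 1.75. Of the 115, 99 had a positive difference. Surf6, a nucleolar protein, was at 2.44, 0.738 and 2.98 RPKM in control and at 117, 110.2 and 112 RPKM in treated embryos. Polr1c, a subunit of RNA polymerases I and III, was at 0.283, 3.35 and 0.169 RPKM against 108, 26.5 and 163 RPKM. Nol6, a factor of the small subunit processome, was at 2.96, 0.163 and 0.443 RPKM against 31.5, 66.5 and 135 RPKM. No member passed the adjusted threshold. Of the 115, 1 was higher at an unadjusted p under 0.01 by limma, where 1.4% of all tested transcripts were, so by that count the list was not above the background. The pattern did not rest on control embryo 2: without it, 28 members (24.35%) were higher and 1 (0.87%) lower, against 14.1% and 10.2% over all transcripts. The median difference was then 1.72 against 0.23 over all transcripts. Under median-ratio scaling and quantile normalization, which bring the median of all transcripts to -0.06 and -0.02, the list's median was 1.25 and 1.24.

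Cytoplasmic ribosomal proteins followed the same course, with 12 of 56 tested transcripts (21.4%) higher in every treated embryo and 0 lower, and a median difference of 1.53. At an unadjusted p under 0.01 by limma, 5 of the 56 were higher and 1 was lower, where 1.4% and 0.377% of all tested transcripts were. The groups of that lower member overlapped. Rps15, of the small subunit, was at 2.12, 1.67 and 6.20 RPKM in control and at 199, 314 and 155 RPKM in treated embryos (difference 5.77, SE 1.50, adjusted p = 0.163 by limma with Benjamini-Hochberg adjustment). Rpl9, of the large subunit, was at 0.509, 0.402 and 0.304 RPKM against 551, 22.5 and 119 RPKM. Rps3 was at 66.2, 0.776 and 2.04 RPKM against 123, 178 and 177 RPKM. The ribosomal protein genes have many processed copies in the genome, and reads shared with such copies can move their values. Without control embryo 2, 17 members (30.4%) were higher and 3 (5.36%) lower, against 14.1% and 10.2% over all transcripts, with a median of 1.85. Of mitochondrial ribosomal proteins 1 of 12 tested transcripts (8.33%) was higher and 0 lower, with a median of -0.23, or 0.06 without control embryo 2, and 11 of 78 of these genes were tested at all. The difference between the lists was not tested.

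The machinery of RNA polymerase II showed the same direction of difference. In the list of RNA polymerase II, TFIID and Mediator genes, 14 of 75 tested transcripts (18.7%) were higher in every treated embryo and 0 lower, with a median of 0.92. Besides Taf9, Med4 of the Mediator complex was at 7.21, 0.223 and 11.6 RPKM in control and at 129, 139.6 and 251 RPKM in treated embryos. Nelfcd, of the complex that holds the polymerase in a pause, was at 10.6, 0.256 and 0.291 RPKM against 110.2, 78.0 and 127 RPKM. Splicing factors had 22 of 134 (16.4%) higher and 2 lower, with a median of 1.04. Tra2a, an activator of exon inclusion, was at 1.41, 1.99 and 15.7 RPKM against 518, 83.5 and 223 RPKM, and U2af1, which recognises the end of the intron, was under 0.5 RPKM in control embryos and at 49.0, 358 and 37.5 RPKM in treated embryos. Hnrnph1 went the other way, at 175, 219 and 105 RPKM against 15.2, 0.578 and 71.8 RPKM, while its relative Hnrnph2 was at 0.156, 0.740 and 3.92 RPKM against 139.9, 88.8 and 92.7 RPKM. Nuclear transport genes, which carry proteins and RNA through the nuclear pore, had 9 of 50 (18.0%) higher and 1 lower: the import factor Kpna2 was at 16.5, 4.0 and 50.2 RPKM against 229, 243 and 185 RPKM, and the lower member was Tnpo1. Without control embryo 2 the counts were 17 higher and 1 lower for the polymerase list, 27 and 7 for splicing factors and 11 and 3 for nuclear transport genes.

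DNA replication genes had 12 of 51 tested transcripts (23.5%) higher and 3 (5.88%) lower. Both proteins of the licensing switch were among the higher ones: Cdt1, which loads the replicative helicase, was at 39.8, 2.92 and 0.437 RPKM in control and at 70.8, 124 and 243 RPKM in treated embryos, and Gmnn, which encodes its inhibitor geminin, was at 52.1, 2.98 and 0.678 RPKM against 121, 243 and 202 RPKM. Rrm2, the small subunit of ribonucleotide reductase, was at 1.61, 3.67 and 0.101 RPKM against 130.0, 47.7 and 110.0 RPKM. The lower members were Mcm7 of the helicase (207, 26.2 and 65.0 RPKM against 0.865, 0.0537 and 10.8 RPKM), the primase Prim1 and an entry of Dbf4. Translation initiation factors had 8 of 53 (15.1%) higher and 2 lower, of which both lower ones were the entries of Eif4e1b. Eif4a1 encodes the helicase that unwinds the start of an mRNA. Its entry of 682 bases was at 7.84, 6.83 and 62.3 RPKM in control and at 301, 74.7 and 743 RPKM in treated embryos. Its longer entry, of 1869 bases, was at 327, 20.3 and 115 RPKM against 111.5, 213 and 359.8 RPKM, so the groups overlapped there. Without control embryo 2, DNA replication genes had 14 (27.45%) higher and 6 (11.8%) lower. Translation initiation factors then had 12 (22.6%) and 3 (5.66%), against 14.1% and 10.2% over all transcripts.

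**Figure D3:**
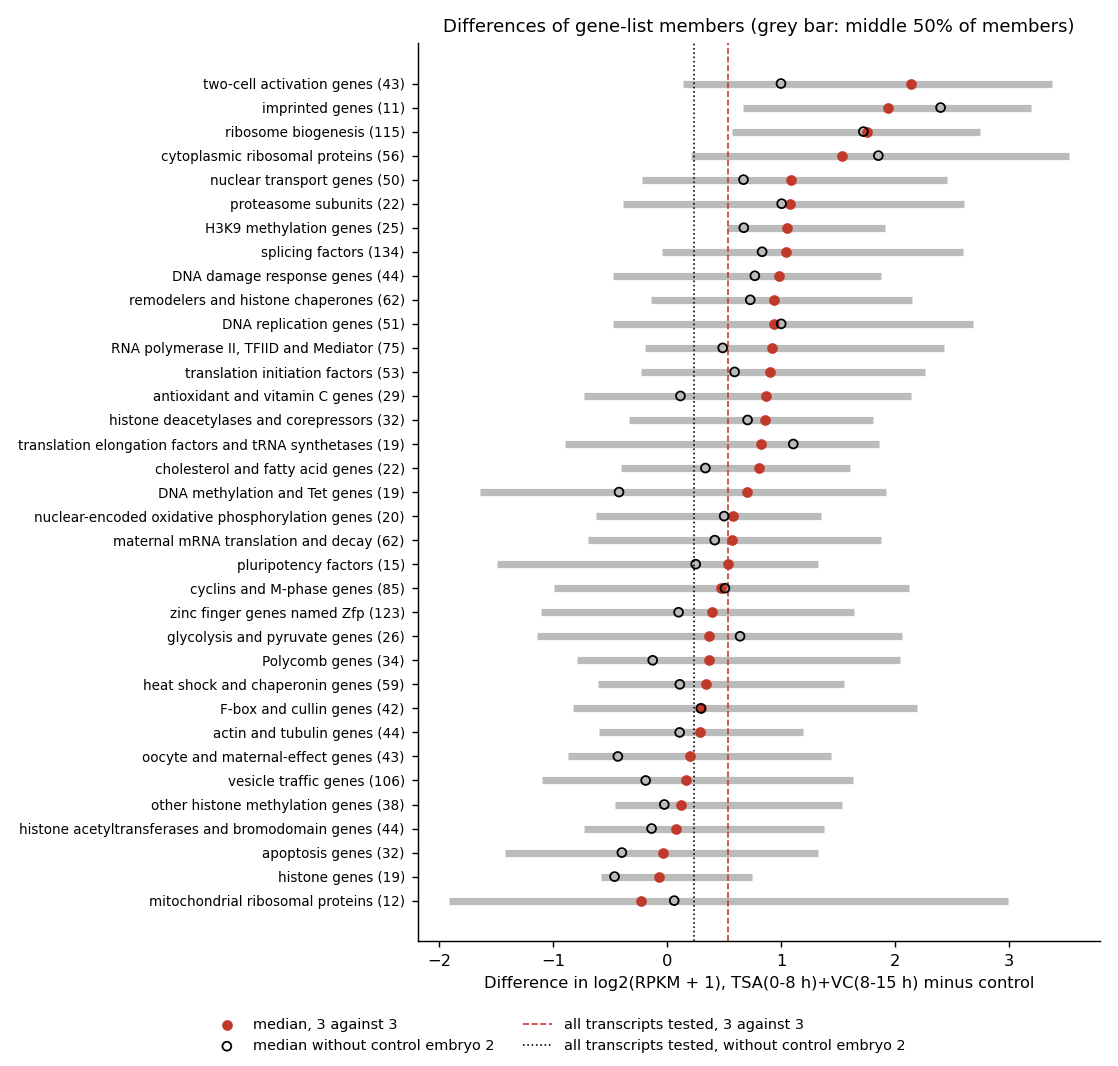
Median difference in log2(RPKM+1), treated minus control, of each gene list with at least 10 tested transcripts (red points, number tested in brackets), the middle 50% of members (grey bars) and the median without control embryo 2 (open circles), with vertical lines for all 5304 transcripts (0.53 and, without control embryo 2, 0.23). Two-cell genes moved from 2.14 to 1.00 without that embryo, while ribosome biogenesis moved from 1.75 to 1.72.

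Genes that act on stored oocyte RNA held the largest share of lower members, but only with control embryo 2 included. In the list of maternal mRNA translation and decay regulators, 9 of 62 tested transcripts (14.5%, against 3.68% over all) were lower in every treated embryo and 4 were higher. The median of the list, 0.57, was near that of all transcripts. Entries of 1 gene count separately here: the 62 come from 51 genes, and the 9 include both entries of Eif4e1b and 2 of Pum2. Besides Eif4e1b, Ybx3 and Pum2, the lower members included Btg4, the adaptor that brings the CCR4-NOT deadenylase to maternal mRNA. Btg4 was at 579.5, 519.6 and 1338 RPKM in control and at 452, 221 and 318 RPKM in treated embryos. It was at 106 to 329.9 RPKM in the other 8 embryos, so for Btg4 all 11 embryos that had TSA, VC or both were below the 3 controls. This did not hold for the leading members of the list. In the other 8 embryos the first entry of Eif4e1b was at 274 to 2720 RPKM and Ybx3 at 3.70 to 847 RPKM. The Pum2 entry of 222 bases was at 1.49 to 1064 RPKM there, and each of these ranges reached above all 3 controls. Cpeb1, which controls polyadenylation of stored mRNA, was at 11.3, 29.4 and 30.4 RPKM against 1.55, 0.0827 and 0 RPKM, and Cnot7, a deadenylase of CCR4-NOT, was at 379.7, 420.1 and 381 RPKM against 97.8, 183 and 212 RPKM; these 2 were picked after their values were seen. The higher members were 2 short entries of Cnbp, Larp1b and Pan3. Without control embryo 2, 11 members (17.7%) were lower, against 10.2% over all transcripts, and 5 (8.06%) were higher, so the list was closer to the background in that setting. It also no longer ranked first: the share of lower members was then 26.7% for pluripotency factors and 26.3% for DNA methylation and Tet genes.

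Of 43 tested transcripts of oocyte and maternal-effect genes, 0 were higher in every treated embryo and 1, Btg4, was lower, with a median of 0.20. Bmp15, a growth factor secreted by the oocyte, was at 519.5, 91.3 and 474 RPKM in control and 259.6, 246 and 220.5 RPKM in treated embryos, and Gdf9 at 110, 2.42 and 130 RPKM against 90.6, 1.43 and 0.181 RPKM, so the groups overlapped for both. Without control embryo 2, 1 member was higher and 7 (16.3%) were lower, with a median of -0.43 against 0.23 over all transcripts. That share of lower members was close to the 17.7% of the maternal RNA regulators, so the gap between the lists was small without control embryo 2. Histone genes had 2 higher and 2 lower of 19 tested. The lower ones were H2bc12 and H2ac22 and the higher ones H1f0, a linker histone, and H2az1, a variant of H2A at promoters, which was at 51.5, 10.1 and 91.2 RPKM in control and 184, 93.8 and 196 RPKM in treated embryos.

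**Figure D4:**
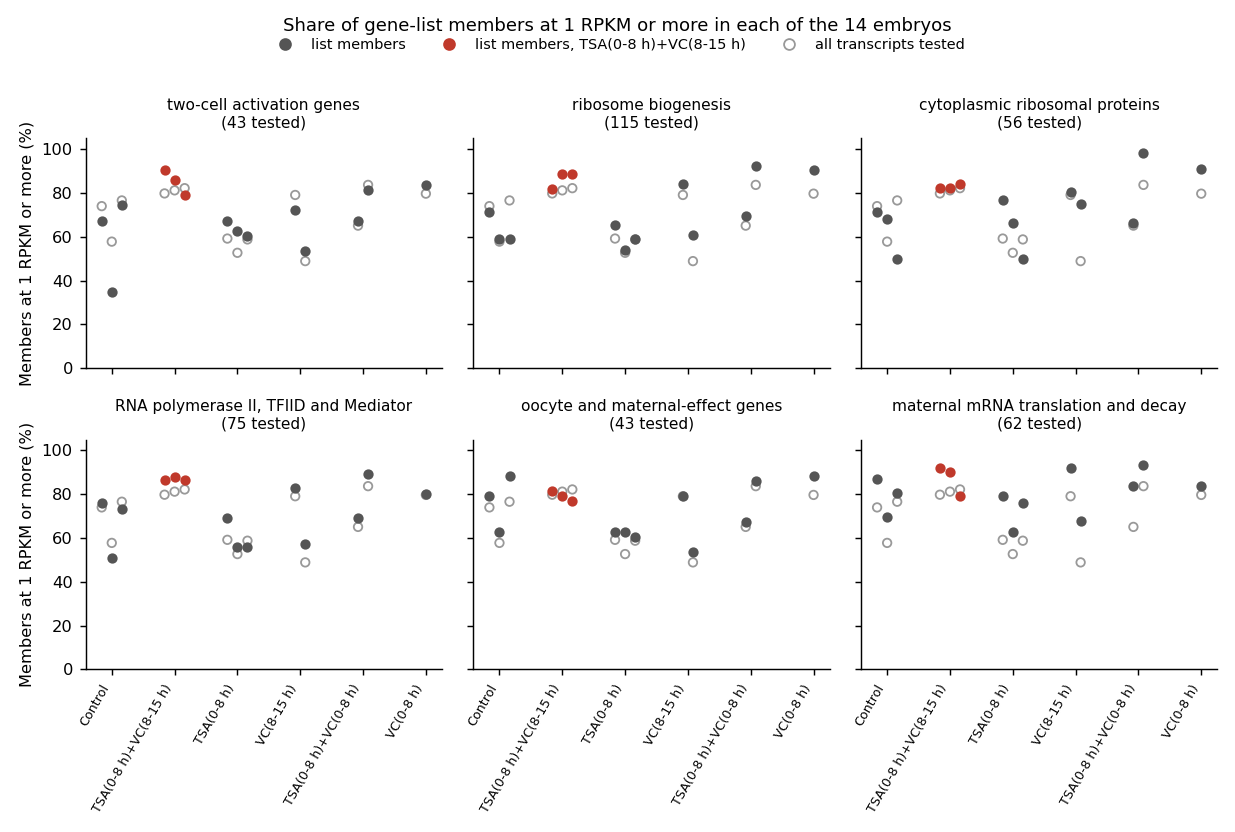
Share of the tested members of 6 gene lists at 1 RPKM or more (y axis, percent) in each of the 14 embryos, grouped by treatment on the x axis (list members, filled points, red for TSA then late VC; all 5304 transcripts, open points). In the 3 treated embryos ribosome biogenesis members were detected at 81.7% to 88.7% and in the 3 control embryos at 59.1% to 71.3%, while other treatments held both high and low embryos. The same level of 1 RPKM in the treated and control embryos also chose the transcripts.

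The detection of these lists also varied between embryos of other treatments. Ribosome biogenesis members were at 1 RPKM or more for 71.3%, 59.1% and 59.1% of the list in control embryos and 81.7%, 88.7% and 88.7% in treated embryos. They were at 53.9% to 65.2% in the 3 TSA(0-8h) embryos, at 84.3% and 60.9% in the 2 VitaminC(8-15h) embryos, at 69.6% and 92.2% in the 2 TSA(0-8h)+VItaminC(0-8h) embryos and at 90.4% in the VitaminC(0-8h) embryo. The share of all 5304 transcripts at 1 RPKM or more ran beside these, at 79.8% to 82.2% in treated, 57.8% to 76.6% in control and 52.7% to 59.2% in TSA(0-8h) embryos. Control embryo 3 had 76.6% of all transcripts but 50.0% of the ribosomal proteins, while treated embryos had 82.1% to 83.9% of the latter. The part of overall detection in the list differences was not tested. The 5304 transcripts were chosen on the treated and control embryos, so shares in the other 8 can be lower through that choice. The shares in treated and control embryos are not free of it either, since the same level of 1 RPKM chose and scored the transcripts. Of those chosen, 160 were at that level in all 3 treated and no control embryo, and 35 in all 3 control and no treated embryo.

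The promoters of the genes in these lists, from RefSeq (GRCm38.p6, 250 bases before to 50 after each start), were searched on both strands for 5 short motifs chosen after the lists' values were seen: TAATCC, bound by homeodomain proteins of the Otx and Obox type, the TATA box TATAAA, the NF-Y box CCAAT, the NRF1 site CGCATGCGC, and CGGAAG, the core bound by ETS factors such as GABPA. CGGAAG was present in 60.7% of 107 promoters of ribosome biogenesis genes and in 57.4% of 47 promoters of cytoplasmic ribosomal proteins, against 32.6% of the 5232 promoters of genes tested and 16.9% of all 32851 promoters. TAATCC was present in 25.9% of 27 promoters of two-cell genes, against 6% of genes tested and 7.06% of all promoters, and TATAAA in 25.9%, against 6.35% and 13.6%. CCAAT was in 36.4%, 34% and 51.9% of the promoters of the 3 lists in the same order, against 39.2% of genes tested, and CGCATGCGC in 4.67%, 4.26% and 0%, against 4.17%. Of the 115 ribosome biogenesis and 56 ribosomal protein entries described above, 92 and 41 genes had a promoter in the table, and of the 39 two-cell genes, 25 had one. The windows below are those of leading ribosomal genes and of two-cell genes that parted the groups and held the motif, while Rpl9 and Rps3 had no CGGAAG before the start. They are printed with the motif in capitals on the strand of the gene and show how alike or unlike the flanks are.
Polr1c (chr17:46248069-46248098, minus strand): ccacttgacgtcCGGAAGtgaaggacgtgg
Surf6 (chr2:26902914-26902943, minus strand): ccttgggggtggCTTCCGgtgctccaggct
Rps15 (chr10:80292373-80292402, plus strand): gtatccgcagagCGGAAGctgttgagcggt
Sp110 (chr1:85604013-85604042, minus strand): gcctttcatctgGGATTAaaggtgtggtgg
Pramel17 (chr4:101844071-101844100, minus strand): acctttcatctgGGATTAaaggtgtggtgc
Tdpoz1 (chr3:93676384-93676413, minus strand): aacacacaccttTAATCCagctttgagact
The windows of Sp110, a gene of nuclear bodies, and Pramel17 were nearly the same, while those of the ribosomal genes shared little beyond the motif. TAATCC is also part of the B1 repeat, a short interspersed element of the mouse genome, and repeats were not masked here. Sp110 held that window 2 times, 139 and 86 bases before its start. Of the 6 two-cell genes in the table whose groups parted upward, Trim43a, Ubtfl1 and Pramel14 had no TAATCC before the start. Such matches describe the letters of these windows and not binding, and RefSeq starts need not be the starts used in two-cell embryos.

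Genes that write and remove histone marks encode the enzymes next to the action of TSA and VC. By the share of members higher in every treated embryo, these groups were near the background or below it. Of 25 tested transcripts of H3K9 methylation genes, 2 (8%) were higher in every treated embryo and 1 (4%) was lower, against 10.5% and 3.68% over all. By direction this list stood above the background: 22 of the 25 had a positive difference, where 60.8% of all transcripts did. The median was 1.05 against 0.53 over all transcripts, and 0.67 against 0.23 without control embryo 2. Kdm3b, a demethylase of mono- and dimethylated H3K9, was at 0.207, 0.143 and 0.0103 RPKM in control and at 12.9, 39.3 and 7.80 RPKM in treated embryos, with no overlap (difference 3.93, SE 1.78, adjusted p = 0.556 by limma with Benjamini-Hochberg adjustment). Setdb1, a methyltransferase of H3K9, was also higher, at 0.359, 0.0315 and 11.7 RPKM against 26.6, 34.5 and 18.7 RPKM. Kdm3a, the relative of Kdm3b, was lower, at 50.8, 113 and 59.3 RPKM against 16.6, 28.8 and 39.7 RPKM. The demethylases Kdm3a and Kdm3b thus stood on opposite sides. Kdm5b, a demethylase of H3K4, overlapped at 42.6, 214 and 89.1 RPKM against 109, 195 and 77.2 RPKM, and Kdm4b and Kdm4d did not reach the filter.

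Histone deacetylases and corepressors, which hold the targets of TSA, had 3 of 32 (9.38%) higher and 1 lower. Mta2, of the NuRD deacetylase complex, was at 43.1, 2.69 and 24.8 RPKM against 297, 232 and 289.8 RPKM, and Sirt1, a deacetylase that TSA does not inhibit, was at 12.8, 37.4 and 55.0 RPKM against 117, 135 and 106 RPKM. Histone acetyltransferase and bromodomain genes had 6 of 44 (13.6%) higher and 3 (6.82%) lower, the latter including Crebbp, at 172, 133 and 158 RPKM against 89.5, 58.2 and 104 RPKM. DNA methylation and Tet genes had 1 higher and 2 lower of 19, among the lower ones Zfp57, which protects imprints, at 180.5, 593 and 228 RPKM against 79.9, 105 and 14.1 RPKM. The median of that list, 0.70, was -0.42 without control embryo 2. Remodelers and histone chaperones had 6 of 62 (9.68%) higher, such as Chaf1a, of the complex that places histones on new DNA (1.17, 42.3 and 35.9 RPKM against 159, 120.2 and 139 RPKM), and 2 lower, Atrx and Hjurp. Polycomb genes had 1 of 34 higher, Pcgf5, and 2 lower, Phc2 and Sfmbt1, and other histone methylation genes had 2 of 38 higher, Prmt6 and Kdm5a, and 0 lower.

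The remaining lists are given by their members that parted the groups. Apoptosis genes had 1 of 32 higher and 2 lower, with a median of -0.03. All 3 encode proteins that protect from cell death: Mcl1 was higher, at 0.0529, 0.334 and 7.17 RPKM against 79.2, 28.5 and 100.1 RPKM, while Xiap, at 69.5, 3.40 and 34.5 RPKM against 3.23, 1.06 and 1.14 RPKM, and Api5 were lower. Pluripotency factors had 4 of 15 (26.7%) higher, among them Fbxo15, Klf17 and Klf5, and 1 lower, Zfp57. The median of that list, 0.53, was the same as over all transcripts. Without control embryo 2, 4 members were higher and 4 lower (26.7% each), against 14.1% and 10.2% over all transcripts. Of 11 tested transcripts of imprinted genes 2 (18.2%) were higher, Ube3a and Usp29. These 2 were under 0.31 RPKM in control embryos and at 15.3 RPKM or more in treated embryos. Both passed the filter only through the treated embryos. Antioxidant and vitamin C genes had 2 of 29 higher, Gclc, which makes the first step of glutathione synthesis (0.215, 0.765 and 0.837 RPKM against 58.4, 25.2 and 75.4 RPKM), and Mt1, a metallothionein, and 1 lower, Gstm1. Cyclins and M-phase genes had 11 of 85 (12.9%) higher and 2 lower, and F-box and cullin genes 5 of 42 (11.9%) higher and 4 (9.52%) lower, so that Cul3 and Fbxo15 were on one side and Fbxl5 and Nedd8 on the other. Heat shock and chaperonin genes had 5 of 59 (8.47%) higher and 1 lower, DNA damage response genes 4 of 44 (9.09%) and 1, proteasome subunits 1 of 22 and 0, glycolysis and pyruvate genes 3 of 26 (11.5%) and 0, nuclear-encoded oxidative phosphorylation genes 2 of 20 and 2, and translation elongation factors and tRNA synthetases 1 of 19 and 1. Vesicle traffic genes had 12 of 106 (11.3%) higher and 5 (4.72%) lower, zinc finger genes named Zfp 14 of 123 (11.4%) and 8 (6.50%), actin and tubulin genes 2 of 44 (4.55%) and 3 (6.82%), and cholesterol and fatty acid genes 0 of 22 and 2 (9.09%). Of 37 cumulus and granulosa cell markers in the files, 2 transcripts were tested and 0 parted the groups.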

How the data were processed

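Single two-cell SCNT embryos were sequenced with the NuGEN Ovation Single Cell RNA-seq System after amplification. The authors trimmed and filtered single-end reads, mapped them with TopHat to mm9, and deposited an RPKM value for each RefSeq entry, which scales exonic reads by library total and by length. RPKM moves in steps of 1 read, from which reads, counted lengths and library totals (at least 99.92% of reads) were recovered. A floor of 3 reads on 1 kb was 0.221 to 0.691 RPKM in the 6 libraries, for counting error only.

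Groups came from the sample titles. Entries at 1 RPKM or more in at least 3 of the 6 embryos were tested with limma 3.58.1 (R 4.3.3; lmFit, eBayes with a trend) on log2(RPKM + a pseudocount of 1), with Benjamini-Hochberg adjustment at 0.05; differences on this scale understate the change of low transcripts. The values are not counts, so the count test of the study was not used. The study used several nuclear transfer experiments, but the labels do not say which embryos came from which, so p-values measure the spread between these embryos. The test and the recovery of reads were tested on simulated data. Symbols were matched for 25250 entries, and gene positions are those of mm9. Python 3.11.15, pandas 2.3.3, scipy 1.17.1 and matplotlib 3.10.9 did the rest.

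Named genes were transcripts past the threshold, the 12 with the smallest p in each direction whose groups did not overlap, up to 3 such members per list and direction, and Kdm3b, Kdm4b, Kdm4d and Kdm5b, which the study names; Xist is not analysed here. The comparison and the 37 gene lists, written from general knowledge, were chosen with earlier results of these data known; 1 transcript past the threshold and 1 list are not reported here. The alternatives were other pseudocounts, filters, scalings and fits, leaving out each embryo, and, chosen after seeing the data, reads of a gene over its summed length, a counted length of at least 300 bases, and counts without control embryo 2.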

Additional observations from a re-analysis of the deposited data

How the results depend on the processing

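The counts at an adjusted p under 0.05, 1 transcript higher and 1 lower by limma with Benjamini-Hochberg adjustment, were small and moved with nearly every setting. They were 0 and 0 with a pseudocount of 0.1, without a filter, with eBayes without a trend and with the RPKM of a gene's entries summed, and at an unadjusted p under 0.01 these fits had 64 and 21, 113 and 22, 126 and 29, and 68 and 18 transcripts. They were 1 and 0 with a minimum of 5 RPKM or a filter on all 3 embryos of either group, 3 and 0 with all 14 embryos in 1 fit, 7 and 3 after quantile normalization, 1 and 3 after median-ratio scaling, 2 and 1 with reads over the summed length of a gene, and 0 and 1 with a counted length of at least 300 bases. Limma-voom on recovered reads gave 2 and 10, but its fitted trend fell to -0.354, below 0, and 11 entries had weights over 100, so those weights have no meaning. At an unadjusted p under 0.01, against 74 and 20, the filter on either group gave 217 and 47, quantile normalization 41 lower, median-ratio scaling 27 and 53, and limma-voom 47 lower.

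Same-numbered embryos shared a number and a sequencing pool, and no label ties a number to a nuclear transfer experiment: their deviations correlated at 0.0336, 0.0188 and -0.000549 over transcripts. With the replicate block the counts were 9 higher and 4 lower at an adjusted p under 0.05, among them Pcgf5 (adjusted p = 0.0135), Prps1 (0.00932), Cnbp (0.0155) and Ccdc82 (0.00378), which limma with Benjamini-Hochberg adjustment did not call without the block. Ccdc82 also passed with reads over the summed length (0.00142), with a counted length of at least 300 bases (0.0425), without treated embryo 2 (0.0451) and with limma-voom. Leaving out 1 embryo gave 0 to 10 higher and 0 to 2 lower at that threshold, and 21 to 117 higher and 14 to 22 lower at an unadjusted p under 0.01. Without control embryo 2 the adjusted counts were 10 and 2. Without treated embryo 1, 2 or 3 the higher transcripts at an unadjusted p under 0.01 were 25, 32 and 21, and Arhgap1 was no longer past the adjusted threshold (adjusted p = 0.303, 0.397 and 0.221 by limma with Benjamini-Hochberg adjustment). Over all alternatives its adjusted p was 2.9e-05 to 0.662.

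The difference of Dbf4 was 0.26 and that of Sfmbt1 1.71 with the entries of the gene summed, and that of Kdm5b was -0.50 after median-ratio scaling and between -0.22 and 0.93 with 1 embryo left out. Of 703 list medians under alternatives, 19 moved beyond the spread between embryos. With 3 embryos a group the median within-group SD of 2.10 stood far above the median difference of 0.53, and short or low transcripts rest on few reads.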
